A study of Mus musculus with 11 samples.

Results

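Zymogen granule proteins and the trypsin inhibitor of the acinar cell were followed through 7 genes, which were Spink1, Gp2, Zg16, Cuzd1, Sycn, Dmbt1 and Rnase1. They were found by gene symbol in the count tables, and 7 of 7 were listed among the 54532 genes of the pancreas table and the 46078 genes of the adipose table. The study compared a mouse model of obesity-related alcohol-induced acute pancreatitis (OA-AP) with lean controls. By their labels all mice were wild type, C57BL/6 and 16 weeks old, and the study's methods describe them as male C57BL/6J mice. The OA-AP mice were kept on high-fat feed over 12 weeks, then received 2 intraperitoneal injections of ethanol at 2 g/kg, 1 h apart, while the control mice ate a chow diet and received saline. Tissue was collected 12 h after the first injection, giving 2 control and 3 OA-AP pancreas samples and 3 samples per group of epididymal fat. Diet, ethanol and pancreatitis differ together between the groups and cannot be told apart.

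Acinar cells of the exocrine pancreas pack digestive enzymes as inactive precursors into zymogen granules, which fuse with the apical membrane when the cell is stimulated. A small set of non-enzyme proteins travels with them. Glycoproteins and lectins line the inside of the granule membrane and help to condense and sort the cargo, and a Kazal-type inhibitor stored beside trypsinogen blocks trypsin that becomes active too early. Impaired function of this inhibitor raises the risk of pancreatitis in humans, and trypsin activity inside acinar cells is an early event of the acute disease.

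The genes were taken in the order of their roles. Spink1 encodes the trypsin inhibitor. Rnase1, pancreatic ribonuclease, is a soluble digestive enzyme of the granule content. Zg16 is a lectin of the granule matrix, and Sycn (syncollin) lines the luminal side of the granule membrane. Gp2 is a lipid-anchored and Cuzd1 a membrane-spanning glycoprotein, both with a zona pellucida domain. Dmbt1, also called muclin or ductin in the mouse, is a large mucin-like glycoprotein with scavenger receptor domains, found in granule membranes and in mucosal secretions. Of the 7 genes, 5 lie on chromosome 7 of GRCm38. These are Sycn (28540885 to 28542209, plus strand), Gp2 (119442537 to 119459285, minus), Zg16 (127050156 to 127087328, minus), Dmbt1 (131032053 to 131121630, plus) and Cuzd1 (131308554 to 131322292, minus). Rnase1 lies on chromosome 14 (51144998 to 51146785, minus) and Spink1 on neither of these chromosomes. None of the 7 shared exonic bases with another gene of GENCODE M21. Dmbt1 and Cuzd1 both lie within the span of Fgfr2, and Sycn within that of Samd4b.

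RefSeq promoter windows of 300 bases on GRCm38.p6, from 250 before to 50 after the gene start, were given for 4 of the 7 genes. The bases before the start are shown because Rnase1 was called lower and Cuzd1 higher in OA-AP. Sycn and Gp2 were not called, and the sign of Sycn turned with the scaling, so the 4 windows are not sorted by direction. Capitals mark CANNTG, the E-box that is one part of the binding site of the acinar factor PTF1.
Rnase1 (chr14:51146768-51147017, minus strand): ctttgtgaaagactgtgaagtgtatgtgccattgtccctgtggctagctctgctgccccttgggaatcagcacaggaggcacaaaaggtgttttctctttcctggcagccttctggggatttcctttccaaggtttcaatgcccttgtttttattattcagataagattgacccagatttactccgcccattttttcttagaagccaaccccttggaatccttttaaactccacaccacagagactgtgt
Sycn (chr7:28540635-28540884, plus strand): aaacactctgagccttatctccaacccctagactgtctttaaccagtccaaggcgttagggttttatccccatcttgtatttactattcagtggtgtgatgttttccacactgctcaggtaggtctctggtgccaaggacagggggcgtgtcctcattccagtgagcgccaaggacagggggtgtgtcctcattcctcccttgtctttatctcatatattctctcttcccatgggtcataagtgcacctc
Gp2 (chr7:119459273-119459522, minus strand): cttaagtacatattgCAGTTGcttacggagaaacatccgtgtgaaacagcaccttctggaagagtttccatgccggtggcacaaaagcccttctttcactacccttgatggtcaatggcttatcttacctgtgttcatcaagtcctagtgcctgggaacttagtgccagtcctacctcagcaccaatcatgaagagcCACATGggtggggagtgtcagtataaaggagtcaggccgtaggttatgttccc
Cuzd1 (chr7:131322293-131322542, minus strand): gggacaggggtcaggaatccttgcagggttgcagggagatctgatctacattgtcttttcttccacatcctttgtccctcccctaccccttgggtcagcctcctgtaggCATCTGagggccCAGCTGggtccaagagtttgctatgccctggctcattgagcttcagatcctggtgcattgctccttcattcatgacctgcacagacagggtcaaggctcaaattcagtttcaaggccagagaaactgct
The windows of Cuzd1 and Gp2 each held 2 E-boxes, and those of Rnase1 and Sycn held 0. Over all 32851 windows of the table, 72.3% held at least 1, with a median of 1. On both strands 3 further motifs were searched, the other PTF1 part TTTCCC, the NR5A2 core AAGGTCA and the GATA form TGATAA. They had 0 matches in the windows of all 4 genes, against 25.2%, 4.72% and 9.05% of all windows. These are matches of letters in a short window, and binding was not measured.

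The pancreas libraries held 14188832 to 17238919 counts. A list of 30 granule enzymes took 70.4% and 71.9% of the control counts and 53.8% to 56.4% of the OA-AP counts. CPM here are counts per library size, with that size adjusted by edgeR's TMM factors. The choice of scaling moved the fold changes. Over all 12884 tested genes, the median log2 fold change was 0.04 with TMM, 0.75 with library totals alone, and 1.11 when each library was scaled to its granule enzyme counts. Of 10 acinar markers, 7 were lower in OA-AP and 0 higher, and their summed expression was 457445 to 538958 CPM in control and 210224 to 277272 CPM in OA-AP libraries. Ctrb1, Cela1, Pnlip, Cpa1, Cel and Amy2b among them are also granule enzymes and made up nearly all of the sum. Of the acinar factors, Rbpjl (724.7 to 733 against 84.3 to 134.7 CPM) and Bhlha15 (251.4 to 321.7 against 26.7 to 59.55 CPM) were lower. Ptf1a (11.07 to 14.93 against 11.86 to 16.13 CPM) and Nr5a2 (35.7 to 47.02 against 36.82 to 44.74 CPM) overlapped between the groups. Summed islet markers were 939.5 to 1163 CPM against 1285 to 1566 CPM, ductal markers 344.3 to 352.5 against 405.6 to 718 CPM, and leukocyte markers 18.7 to 41.1 against 32.2 to 102 CPM. Of 7 islet markers 1 was called higher, and most of their sum was Ins2 (533.9 to 697.3 against 829.8 to 1025 CPM) and Ins1. Ins2, Ins1 and Iapp were higher without overlap, while Gcg (101.6 to 122.4 against 60.9 to 131.8 CPM), Sst, Pyy and Ppy overlapped. Ductal markers went both ways, with Krt18 at 99.7 to 102.5 against 238.3 to 451.2 CPM and Muc1 at 141.4 to 147 against 43.7 to 56.0 CPM. Of 7 tested leukocyte markers 0 were called. S100a8 was at 0.0858 to 0.598 CPM in control and spread from 0.744 to 29.6 CPM in OA-AP. S100a9 was at 0.257 to 0.399 CPM against 1.09 to 40.7 CPM. Lyz2 (13.4 to 30.8 against 18.9 to 22.7 CPM) and Adgre1 overlapped between the groups, and Cd3e was lower in OA-AP. Summed adipocyte markers were 24.0 to 37.99 CPM against 37.1 to 70.5 CPM, nearly all of it Fabp4, while Adipoq stayed at or under 0.0997 CPM in all 5 libraries. The part of these shifts in the fold changes was not tested.

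In the pancreas, 2 of the 7 genes, Dmbt1 and Cuzd1, were upregulated in OA-AP and 3, Zg16, Rnase1 and Spink1, were downregulated, while Gp2 and Sycn were not called. DEGs had an adjusted p under 0.05 with a fold change of 1.5 or more. Among all tested genes 29.8% were DEGs, 16.2% upregulated and 13.5% downregulated. With library totals 3 of the 7 were higher and 2 lower, where 49.3% of all tested genes were called, 45.4% higher and 3.93% lower. Scaled to the granule enzymes 3 were higher and 1 lower, where 63.6% were called, 61.5% higher and 2.1% lower. The log2 fold changes of the 7 ranged from −1.96 to 1.62, with a median of −0.53 beside 0.04 for all tested genes. In bulk tissue, fewer acinar cells and less RNA per acinar cell cannot be told apart.

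**Figure D1:**
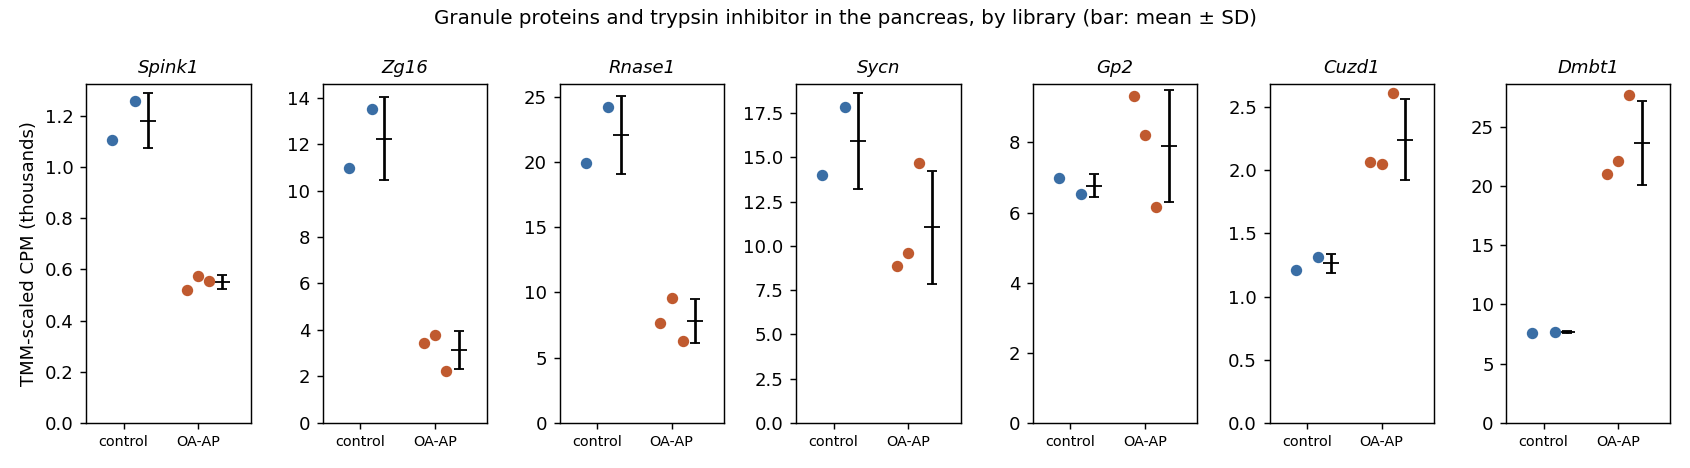
Expression of the 7 genes in each pancreas library, in units of 1000 TMM-scaled CPM on axes that start at 0, with blue points for the 2 control and orange points for the 3 OA-AP libraries, and bars for the group mean ± SD. Zg16, Rnase1 and Spink1 sit lower and Cuzd1 and Dmbt1 higher in every OA-AP library, while the groups of Sycn and Gp2 overlap.

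Spink1 (ENSMUSG00000024503), the trypsin inhibitor, was measured at 1105 and 1256 CPM in control and at 520, 575.4 and 555 CPM in OA-AP pancreas. The groups did not overlap, and the OA-AP libraries lay close together. Non-overlapping groups were found for 62.3% of all tested genes. The log2 fold change was −1.10 (SE 0.14, adjusted p = 0.000989 from edgeR's quasi-likelihood test), a 2.15-fold decrease. With library totals alone it was −0.39 (adjusted p = 0.0306), under the fold threshold, and relative to granule enzymes it was −0.02.

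Rnase1 (ENSMUSG00000035896), the ribonuclease, was measured at 19962 and 24197 CPM in control and at 7626, 9601 and 6274 CPM in OA-AP pancreas. It was among the most abundant transcripts of the control pancreas, with rank 16 in both libraries, and had ranks 22, 21 and 24 in OA-AP. Every OA-AP library lay below both controls. OA-AP was lower by a log2 fold change of −1.49 (SE 0.21, adjusted p = 0.00164 from edgeR). The decrease was also called with library totals alone, at −0.77, but not when scaled to the granule enzymes, at −0.40 (adjusted p = 0.102, edgeR).

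Zg16 (ENSMUSG00000049350), the matrix lectin, showed the largest decrease of the 7 genes. Its expression was 10982 and 13494 CPM in control and 3424, 3800 and 2220 CPM in OA-AP pancreas. OA-AP replicate 3 was the lowest, and the groups were far apart. The log2 fold change was −1.96 (SE 0.24, adjusted p = 0.000943 from edgeR), a 3.89-fold decrease. Zg16 was called lower under each scaling, at −1.22 with library totals and −0.85 relative to granule enzymes.

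Sycn, syncollin (ENSMUSG00000084174), was measured at 14017 and 17835 CPM in control and at 8843, 9577 and 14694 CPM in OA-AP pancreas. OA-AP replicates 1 and 2 lay below both controls, and replicate 3 fell between them, so the groups overlapped. The log2 fold change of −0.53 (SE 0.25, adjusted p = 0.133 from edgeR) did not pass. Without OA-AP replicate 3 it was −0.84 (adjusted p = 0.00106, edgeR) and passed, in a fit that called 17% of all tested genes lower. The sign turned with the scaling, to 0.17 with library totals and 0.53 relative to granule enzymes, neither of which was called.

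Gp2 (ENSMUSG00000030954), the major glycoprotein of the granule membrane, was measured at 6995 and 6541 CPM in control and at 9327, 8223 and 6161 CPM in OA-AP pancreas. OA-AP replicates 1 and 2 were above both controls and replicate 3 was below both. A log2 fold change of 0.22 (SE 0.20, adjusted p = 0.424 from edgeR) was not called. Scaled to library totals it was 0.95 (adjusted p = 0.00908) and scaled to granule enzymes 1.32 (adjusted p = 0.00131), and both were called higher. The median of all tested genes had moved up as well, to 0.75 and 1.11.

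Cuzd1 (ENSMUSG00000040205), the other zona pellucida domain protein, was measured at 1210 and 1316 CPM in control and at 2065, 2048 and 2615 CPM in OA-AP pancreas. The groups did not overlap, and OA-AP replicate 3 was the highest. The log2 fold change was 0.83 (SE 0.17, adjusted p = 0.00831 from edgeR), a 1.78-fold increase. The call was lost without control replicate 1 (log2 fold change 0.78, adjusted p = 0.101) and without control replicate 2 (0.89, adjusted p = 0.0803), where 1 control library was left and was assumed to vary like the other group. It was called with library totals (1.53) and relative to granule enzymes (1.90).

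Dmbt1 (ENSMUSG00000047517), the mucin-like glycoprotein, showed the largest increase of the 7 genes. It was measured at 7617 and 7704 CPM in control and at 20991, 22131 and 27620 CPM in OA-AP pancreas. On TMM-scaled CPM the controls were within 1.01-fold of each other, and every OA-AP library stood well above them. As a share of library counts the controls were farther apart, at 0.603% and 0.537%. This was a log2 fold change of 1.62 (SE 0.19, adjusted p = 0.00077 from edgeR), a 3.08-fold increase. It was 2.32 with library totals and 2.68 relative to granule enzymes. Dmbt1 is also a product of duct cells. Of 8 tested ductal markers 2 were higher and 2 lower, and the part of duct cells in this increase was not tested. By counts, Dmbt1 ranked 23 among all genes in both control libraries and 7, 10 and 7 in OA-AP.

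**Figure D2:**
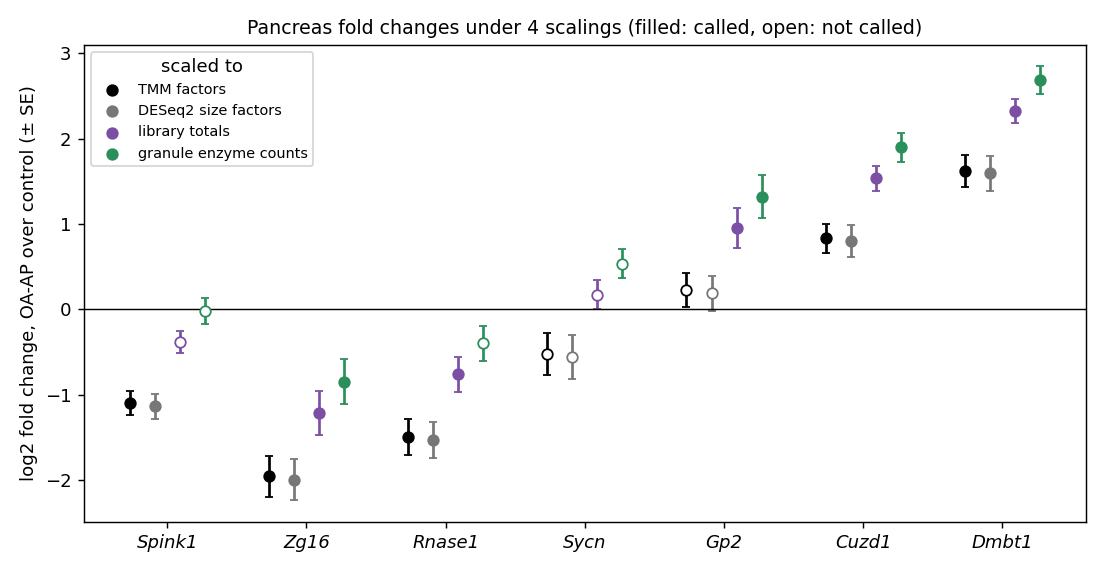
Log2 fold change of OA-AP over control in the pancreas (± SE) for each gene under TMM factors, DESeq2 size factors, library totals and granule enzyme counts, with filled points for DEGs and open points for genes not called. Dmbt1 and Cuzd1 are called higher and Zg16 lower under each of the 4 scalings, while Spink1, Rnase1, Sycn and Gp2 change call or sign.

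OA-AP replicate 3 held an extreme OA-AP value for 6 of the 7 genes, the highest for Sycn, Cuzd1 and Dmbt1 and the lowest for Zg16, Rnase1 and Gp2. Among 3 libraries most hold the highest or the lowest value of any gene. The share of all tested genes with an extreme in replicate 3 is not given here, so this count is a description only. The highest OA-AP library exceeded the lowest by 1.71-fold for Zg16, 1.66-fold for Sycn, 1.53-fold for Rnase1 and 1.51-fold for Gp2, against 1.11-fold for Spink1. Between the 2 control libraries this ratio was from 1.01 for Dmbt1 to 1.27 for Sycn. All these ratios are of TMM-scaled CPM and depend on that scaling. Without OA-AP replicate 3 the 5 DEGs were still called in the same direction, and Sycn was added to those lower. In that fit 33.9% of all tested genes were called, 16.9% higher and 17% lower.

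A ratio inside a library needs no scaling between libraries, so each gene was also set against the summed counts of the 30 granule enzymes. Spink1 had 1.24 and 1.22 counts per 1000 enzyme counts in control and 1.27, 1.27 and 1.09 in OA-AP pancreas. These values overlapped, with a ratio of OA-AP over control of 0.983 (log2 difference −0.03, SE 0.08, exact two-sided permutation p = 1). With the geometric mean of the enzymes in place of their sum the sign turned, to a log2 difference of 0.29 (SE 0.07). The groups did not overlap there (exact permutation p = 0.2). With the trypsinogen copies left out of the sum the difference was −0.038, and the groups overlapped.

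Dmbt1 had 8.56 and 7.48 counts per 1000 enzyme counts in control and 51.4, 48.97 and 54.3 in OA-AP libraries, a 6.44-fold difference. Cuzd1 had 1.36 and 1.28 against 5.06, 4.53 and 5.14, or 3.72-fold, and Gp2 had 7.86 and 6.35 against 22.8, 18.2 and 12.1, or 2.43-fold. Sycn had 15.8 and 17.3 against 21.7, 21.2 and 28.9, or 1.43-fold. These 4 genes were higher without overlap, as were 72% of all tested genes on this ratio, and the log2 differences of Gp2 (1.28) and Sycn (0.52) stand beside a median of 1.11 for all tested genes scaled to the enzymes. Zg16 was lower against the enzymes too, with 12.4 and 13.1 in control and 8.38, 8.41 and 4.36 in OA-AP libraries, a ratio of 0.531, where 4.7% of all tested genes were lower without overlap. Rnase1 had 22.4 and 23.5 against 18.7, 21.3 and 12.3, a ratio of 0.74. With the geometric mean of the enzymes the Rnase1 ratio was 0.921 and the groups overlapped (exact permutation p = 0.9), and the Zg16 ratio was 0.661 (exact permutation p = 0.3). The exact permutation p was 0.1 for Gp2, Zg16, Cuzd1, Sycn and Dmbt1, the smallest that 2 samples against 3 can give, and 0.2 for Rnase1. With Benjamini-Hochberg adjustment over the 7 genes these became 0.14 and 0.233.

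**Figure D3:**
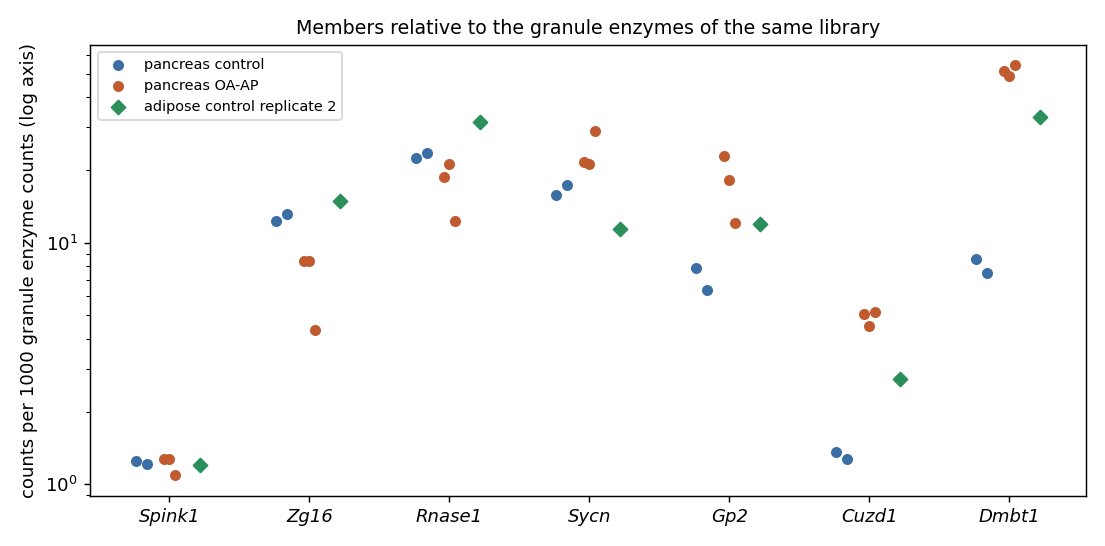
Counts of each gene per 1000 counts of the 30 granule enzymes in the same library, on a log axis, for the 2 control pancreas (blue), 3 OA-AP pancreas (orange) and adipose control replicate 2 (green diamond) libraries. Spink1 overlaps between the pancreas groups, from 1.09 to 1.27, Dmbt1 is at 7.48 and 8.56 in control and at 48.97 to 54.3 in OA-AP, and Zg16 and Rnase1 sit lower in OA-AP.

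Together the 7 genes took 4.90% and 5.04% of the counts of the control pancreas and 6.67% to 6.95% of those of OA-AP. Dmbt1 alone turned this direction, since without it the share was 4.30% and 4.51% in control and 3.61% to 4.19% in OA-AP. Per gene length the order in control, from high to low, was Sycn, Rnase1, Zg16, Gp2, Spink1, Dmbt1 and Cuzd1, from 28644 ± 4855 to 559.7 ± 33.2 CPM per kilobase (SD, n = 2), and no neighbours overlapped. In OA-AP the order was Sycn, Rnase1, Gp2, Dmbt1, Zg16, Spink1 and Cuzd1, from 19852 ± 5733 to 994.2 ± 142.9 CPM per kilobase (SD, n = 3). Zg16 had dropped from the third place to the fifth, and Dmbt1 had passed Spink1 and Zg16. Gp2 and Dmbt1 overlapped there, as did Dmbt1 and Zg16. The place of Spink1 is uncertain, since its length in the authors' table, 422 bases, differs from the 729 exonic bases of GENCODE M21, while those of the other 6 genes are identical.

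The genes with the most similar pattern were sought among 5699 genes whose mean log2 CPM was 3 or more, by Euclidean distance of centred log2 CPM over the 5 pancreas libraries. For Zg16 these were Ssx2ip, Chpt1 and Ggh, at distances of 0.17 to 0.21. For Sycn they were Klk1b5, Cela3b and mt-Rnr2, of which Cela3b is an elastase of the granules. Genes near Rnase1 included Dhrs1 and Bckdk. Spink1 was nearest to Pla2g12a, Cyb5r3 and Mvb12a, and Gp2 to Cdc37l1, Sgpl1 and Me2. Cuzd1 was nearest to Dync1i2, Msl1 and Cacul1, and Dmbt1 to Vwa5a, Csnk1e and Vars. Among the 7 themselves the closest pairs were Rnase1 with Zg16, at 0.58, and Rnase1 with Spink1, at 0.61. Among the genes compared, 183 were nearer to Rnase1 than Zg16 was.

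**Figure D4:**
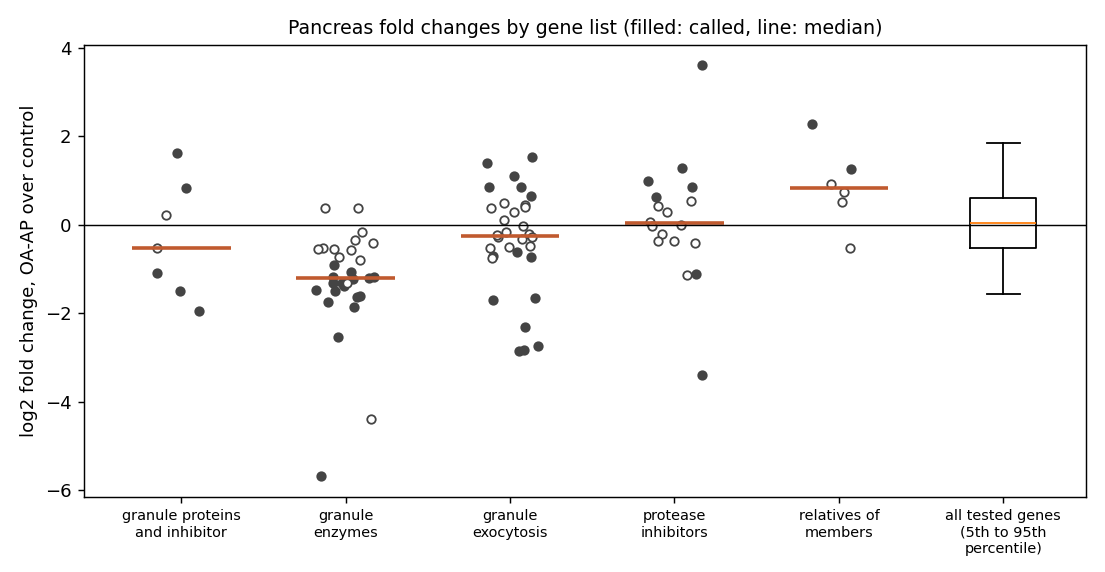
Log2 fold change of OA-AP over control in the pancreas for each tested gene of the 7 granule genes and of 4 related lists, with filled points for DEGs, open points for genes not called and a line at each median, beside a box (quartiles and median) with whiskers from the 5th to the 95th percentile of all tested genes. The granule enzymes lie mostly below 0 with a median of −1.20, while the granule genes span −1.96 to 1.62.

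The cargo of the granules was read from the 30 granule enzymes, all tested, of which 17 were downregulated and 0 upregulated, with a median log2 fold change of −1.20. DESeq2 called 19 lower, where it called 11.2% of all genes lower, and 0 higher, and 24 of the 30 had an unadjusted p under 0.05 in edgeR, as did 44.8% of all tested genes. Pancreatic lipase, Pnlip, had 81734 ± 11502 CPM (SD, n = 2) in control and 26631 ± 2008 CPM (SD, n = 3) in OA-AP, a log2 fold change of −1.62 (SE 0.18, adjusted p = 0.000566 from edgeR). The carboxyl ester lipase Cel fell by 1.62 on the log2 scale and the phospholipase Pla2g1b by 2.55. Spink1 (−1.10) lay near the median of this list, Rnase1 (−1.49) and Zg16 (−1.96) below it, and Sycn, Gp2, Cuzd1 and Dmbt1 above it. Relative to the enzymes' own summed counts 3 of the 30 were higher and 3 lower, with a median of −0.11, a scaling that by construction centres this list. Several of these enzymes, the amylases and trypsinogens above all, are near-identical copies between which reads can be split, so single values among them are uncertain.

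A wider list around granule exocytosis was mixed. Of its 32 tested genes 6 were upregulated and 9 downregulated, 46.9% together, with a median of −0.26. The 9 include the acinar transcription factor Bhlha15 (−2.745) and the early secretory genes Tmed6, Tmed11 and Copz2, so they are not all parts of granule movement or fusion. Rab3d was not called, at 162.7 ± 5.37 CPM in control and 158.6 ± 7.10 CPM in OA-AP (SD, log2 fold change −0.036). Bhlha15, Tmed11, Copz2 and Rab3d were named after their values were seen. Rab3a, a small GTPase of regulated secretion, fell by 2.82 on the log2 scale (SE 0.24, adjusted p = 0.000221), with 11.9 ± 1.13 CPM in control (SD, n = 2) and 1.67 ± 0.294 CPM in OA-AP (SD, n = 3, edgeR). Slc17a9, the vesicular nucleotide transporter, fell by 2.31 and Tmed6, a cargo receptor of the early secretory path, by 1.67. Stxbp3, a Munc18 protein that binds syntaxins, rose by 1.53 (SE 0.16, adjusted p = 0.000502, edgeR). With library totals the list had 13 higher and 5 lower and a median of 0.44, beside 45.4% higher, 3.93% lower and a median of 0.75 over all tested genes. It had 6 calls (18.8%) without control replicate 1 and 8 (25%) without control replicate 2, where 12.4% and 10.9% of all tested genes were called.

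Genes listed as other protease inhibitors were called in both directions. Of 26 listed, 18 were tested, 5 were upregulated and 2 downregulated, 38.9% together, with a median of 0.03. Relative to granule enzymes the list had 11 higher (61.1%) and 1 lower, close to the 61.5% higher over all tested genes. Serpini2, a serpin of the exocrine pancreas, fell by 3.40 (SE 0.28, adjusted p = 0.000271 from edgeR), with 911.5 ± 25.2 CPM in control (SD, n = 2) and 86.3 ± 29.8 CPM in OA-AP (SD, n = 3). Cst3, the cysteine protease inhibitor cystatin C, fell by 1.12 and, as Spink1, lost its call with library totals (−0.40). Spint1, a membrane-bound Kunitz-type inhibitor, rose by 1.27 and Serpinb6a by 0.98. The other 3 that rose, named here after their values were seen, were Serpinb1a, Serpinh1 and Timp1. Serpinh1 was listed by its family name, and inhibitor activity was not measured for any listed gene. Timp1 had a control mean of 0.249 CPM, under the 0.257 and 0.299 CPM that 3 counts make in the control libraries.

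Relatives of the granule genes by domain or family, listed together with the ribonuclease inhibitor Rnh1, comprised 16 genes. Of these 6 were tested, 2 were upregulated and 0 downregulated, with a median of 0.83. Ang, an angiogenin of the ribonuclease family, rose by 2.28 (SE 0.18, adjusted p = 0.000192 from edgeR) and Rnase4 by 1.25 (SE 0.17, adjusted p = 0.00154), opposite in sign to Rnase1. Ang and Rnase4 are overlapping genes, so the split of reads between them is uncertain. DESeq2 also called 2 higher and 0 lower, and 4 of the 6 had an unadjusted p under 0.05 in edgeR, beside 44.8% of all tested genes. With library totals 4 of the 6 were higher, beside 45.4%.

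The adipose libraries held 20825177 to 27928097 counts. Adipoq, the defining adipocyte gene, was measured at 2525 to 3752 CPM across all 6 libraries. Summed over 7 adipocyte markers, expression was 36943 to 40218 CPM in control and 30750 to 37564 CPM in OA-AP, with 1 marker higher and 2 lower. Plin1 was at 1471 to 1659 against 367.9 to 683.4 CPM, and Lep at 231.6 to 484.9 against 786.6 to 4082 CPM. Of 10 epididymis markers, 7 had 0 counts in every adipose library, and the fat pad of origin could not be checked from the marker lists. None of the 7 granule genes passed the filter on low counts there, which kept 15839 genes, so they have values and no test.

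**Figure D5:**
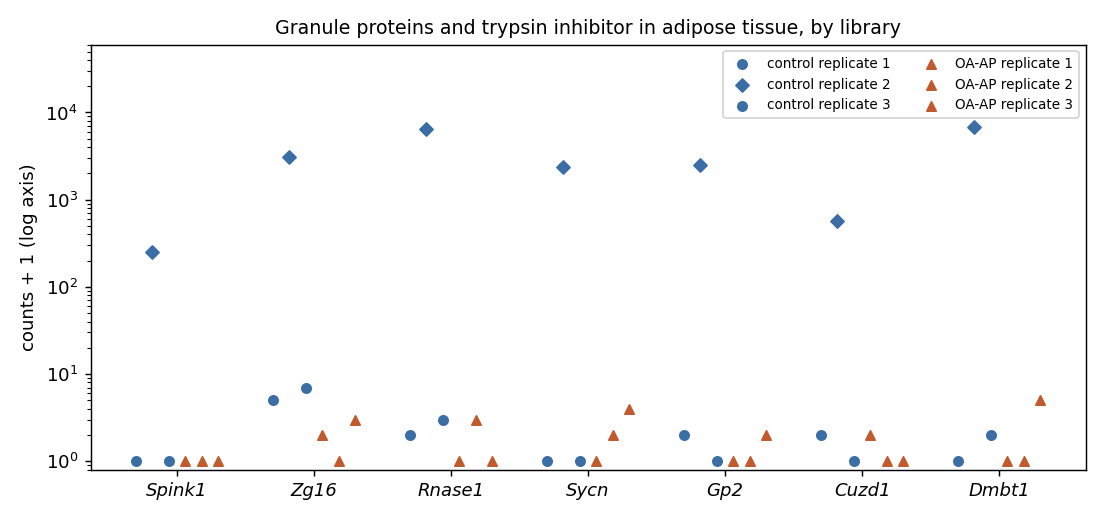
Counts plus 1 of the 7 genes in each adipose library, on a log axis, with blue circles for control replicates 1 and 3, blue diamonds for control replicate 2 and orange triangles for OA-AP. Control replicate 2 held 248 to 6836 counts of each gene and the other 5 libraries 0 to 6.

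Nearly all counts of the 7 genes came from 1 library, control replicate 2. It held 6836 counts of Dmbt1, 6521 of Rnase1, 3081 of Zg16, 2474 of Gp2, 2345 of Sycn, 562 of Cuzd1 and 248 of Spink1. In the other 5 libraries the counts were 0 to 6 for Zg16, 0 to 4 for Dmbt1, 0 to 3 for Sycn, 0 to 2 for Rnase1, and 0 or 1 for Gp2 and Cuzd1. Spink1 had 0 counts in 5 of 5, which allows up to 0.156 CPM in the shallowest (3 counts, counting error only). Control replicate 2 thus held 99.6% to 100% of all adipose counts of each gene. Without a filter, edgeR tested the 7 genes and called 0, with 0 at an unadjusted p under 0.05, and DESeq2 gave no p-value for any of them.

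The same library held 206353 granule enzyme counts, 0.914% of its total, against 0.0186% to 0.0260% in the other 5, and its acinar markers summed to 3732 CPM. The low share in OA-AP was mostly Amy1, at a mean of 196.2 ± 7.99 CPM, with Cela1 at 11.9 ± 2.92 CPM (SD, n = 3). Cpa1 and Ctrb1 had OA-AP means of 0.254 and 0.485 CPM. Amy1 was at 221.5 ± 32.5 CPM in control (SD, n = 3). Per 1000 enzyme counts, Spink1 stood at 1.20, beside 1.22 and 1.24 in the control pancreas. Zg16 stood at 14.9, 1.17 times the control pancreas mean, and Rnase1 at 31.6, 1.38 times. Sycn stood at 11.4, 0.687 times, Gp2 at 12.0, 1.69 times, and Cuzd1 at 2.72, 2.07 times. Dmbt1 was farthest from the control pancreas, with 33.1 against 7.48 and 8.56, or 4.13 times, and below the 48.97 to 54.3 of OA-AP pancreas. Islet markers had 2 counts in this library beside its 206353 enzyme counts, against 10949 and 11661 counts beside 10365777 and 10333770 enzyme counts in control pancreas. The origin of these counts was not tested.

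Of the tested adipose genes 25.1% were DEGs. Of the 30 granule enzymes 4 were tested there, 0 were called by edgeR and 0 by DESeq2, and 2 had an unadjusted p under 0.05 in edgeR, beside 47.4% of all tested genes. Their median log2 fold change was −4.59 with all 6 libraries and 0.39 over the 3 tested without control replicate 2. Without control replicate 1, 1 enzyme, Cpb1, was called lower, and without control replicate 3, 1 enzyme, Ctrl, was called lower, each of these settings giving control replicate 2 more weight in its group. Of 28 tested exocytosis genes 1, Snap29, was upregulated and 4 downregulated, with a median of −0.15 beside −0.01 for all tested genes. Rab3a, lower in the pancreas too, fell by 1.34 (SE 0.13, adjusted p = 0.000743 from edgeR) and Cplx2, a complexin that acts on vesicle fusion, by 1.42. The other 2 that fell were Stx2 and Slc17a9, named like Snap29 after their values were seen, and 3 genes of the list were called without control replicate 3 or without OA-AP replicate 1. Of 19 tested genes on the protease inhibitor list 6 were upregulated and 1, Timp2, downregulated. Markers of other cell types moved with these groups. Summed leukocyte markers were 533 to 654.8 CPM in control and 720.8 to 998.6 CPM in OA-AP (4 of 9 higher, 2 lower), and fibroblast markers 3359 to 4242 against 2028 to 2497 CPM (5 of 7 lower), and their part in the values of the inhibitors and relatives was not tested. Timp1, an inhibitor of metalloproteinases, stood at 4.65 ± 0.722 CPM in control and 252.7 ± 71.3 CPM in OA-AP (SD, n = 3 each) and rose by 5.76 on the log2 scale (SE 0.28, adjusted p = 0.000179 from edgeR), and Cstb rose by 0.91. Of 9 tested relatives 2 were upregulated, Rnh1 and Cd163, and 6 downregulated, or 5 in all without OA-AP replicate 1. Rnase4, again uncertain for its overlap with Ang, fell by 0.89 in adipose tissue, the opposite sign to its increase in the pancreas, and Rnh1, the ribonuclease inhibitor, rose by 0.68. Rnh1 lost its call with library totals and without OA-AP replicate 1. Timp2 and Cd163 were named after their values were seen. The difference of Rnase4 between the tissues was not tested.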

How the data were processed

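RNA sequencing counts of 11 libraries were analysed. The authors trimmed the reads with Trim Galore 0.6.6, checked them with fastp 0.20.1, mapped them with STAR to GRCm38 and counted reads per gene in featureCounts 2.0.1. They deposited whole-number counts per gene without normalization, and in the pancreas table a gene length. The annotation release and the strand setting are not given in the sources used here. Libraries were grouped by their labels. They are labelled as replicates, and nothing in the labels says that each was a separate animal, so p-values measure the spread between these libraries, which may in part be technical.

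Each tissue was tested apart with edgeR 4.0.16 (R 4.3.3), using filterByExpr, TMM factors and the robust quasi-likelihood test with Benjamini-Hochberg adjustment over all tested genes. DEGs had an adjusted p under 0.05 with a fold change of 1.5 or more, as in the paper. SE was taken from the log2 fold change over the root of its F statistic. The mean and SD of CPM were taken per group. Ratios to granule enzymes were compared by an exact two-sided permutation test. DESeq2 1.42.0, other scalings and filters, a fold change of 2, a replicate block and each library left out in turn were alternatives. Besides the 7 genes, the DEGs with the smallest p were named from each list, at most 4 in the pancreas and 2 in adipose tissue, with the 3 genes of nearest pattern, and 1 gene that this rule chose is not reported here. The 7 genes and all lists were chosen with earlier results of these data known. Floors cover counting error only, and no molecular identifiers are described.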

Additional observations from a re-analysis of the deposited data

How the results depend on the processing

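Scaling changed the most calls in the pancreas. With library totals alone Spink1 was at a log2 fold change of −0.39 and no longer called, Gp2 at 0.95 and called, and Sycn turned to 0.17. In that setting 9 of 30 granule enzymes and 4 of 6 relatives were called, beside 49.3% of all tested genes. With library sizes set to the granule enzyme counts, Spink1 was at −0.021 and Rnase1 at −0.40, both no longer called, Gp2 was at 1.32 and called, Sycn turned to 0.53, and 1 of the 7 genes was lower. In that setting 6 of 30 enzymes, 12 of 18 protease inhibitors and 5 of 6 relatives were called, beside 63.6% of all tested genes. These settings move all genes by construction. Relative to the enzymes, Spink1 turned from −0.03 to 0.29 with their geometric mean and to 0.049 without OA-AP replicate 3, and the cause was not tested.

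A fold change of 2 removed Cuzd1 (0.83) and left 1 gene of the 7 higher. The pancreas then had 9 exocytosis genes and 4 protease inhibitors called, and adipose tissue 2 exocytosis genes, 3 inhibitors and 2 relatives. The share of all tested genes that passed this threshold is not given here, so these counts cannot be set against it.

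With each library left out in turn, the log2 fold change ranged from −1.18 to −1.005 for Spink1, −1.67 to −1.35 for Rnase1, −2.12 to −1.80 for Zg16, −0.84 to −0.34 for Sycn, 0.08 to 0.33 for Gp2, 0.66 to 0.89 for Cuzd1 and 1.45 to 1.69 for Dmbt1. Cuzd1 lost its call without either control library, and Sycn was called without OA-AP replicate 3. The ratio of Spink1 to the enzymes ranged from −0.062 to 0.049. With each OA-AP pancreas library left out, 2 of the 7 genes were higher and 3 to 4 lower, and 12 to 15 exocytosis genes were called. In those settings 21.7% to 33.9% of all tested genes were called. Fewer of both were called with a control pancreas library left out, where 1 control remained. In adipose tissue called genes numbered 3 to 5 for exocytosis, 5 to 7 for relatives and 0 to 1 for enzymes, where 17.8% to 27.6% of all tested genes were called.

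Same-numbered control and OA-AP libraries share only a number. Correlations of their deviations from the group means were 0.0015 and −0.041 in the pancreas and −0.0058, 0.0562 and −0.1625 in adipose tissue. With the number as a replicate block Sycn was called lower, at −0.78 (adjusted p = 0.000394, edgeR), and no other call among the 7 genes changed. In the pancreas OA-AP replicate 3 has no control of the same number, so it adds nothing to the group difference in this fit. The block is therefore close to leaving that library out, where Sycn was at −0.84, and is not a separate check.

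DESeq2, its size factors in edgeR, TMM factors computed without the granule genes, no filter and a filter of 10 counts in every library changed none of the 7 pancreas calls. Counts per library limit the pancreas little. In adipose tissue the 7 genes had nearly all their counts in control replicate 2 and did not pass the main filter. Of 20 fold changes of genes chosen from the lists by the naming rule, 11 kept their call under every alternative run and 0 turned. That rule took the smallest p of the main fit, and the alternatives reuse the same libraries. The share among other called genes is not given, so this count is a description only.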
